A study of Mus musculus with 6 samples.

Results

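The 9 genes described here, of 24421 listed, were grouped under the uptake of glutamate by astrocytes and its return as glutamine. All 9 were picked by name as *Slc1a2*, *Slc1a3*, *Slc1a4*, *Glul*, *Glud1*, *Slc38a3*, *Slc38a5*, *Grm3* and *Grm5*, and each name was found once in the deposited tables. Among them, *Grm3* and *Grm5* encode glutamate receptors, and *Slc1a4* encodes a neutral amino acid carrier of the same family as the glutamate carriers. RNA was sequenced from hippocampal astrocytes of C57BL/6 mice homozygous for *Siglech* dtr, an allele that places the diphtheria toxin receptor under the control of the microglial gene *Siglech*. The PBS group held 3 libraries from mice given PBS, and the DT group held 3 libraries from mice given diphtheria toxin (DT) at 50 μg/kg. Both groups were taken 2 days after the injection, and each library came from the hippocampi of 2 pooled mice. By the study's methods, the injected mice were adult and males were used. Both groups carried the allele on both chromosomes, and no mice without it were among these libraries, so an effect of DT itself and an effect of the loss of microglia cannot be told apart. The astrocytes were obtained by magnetic sorting, first by removing cells that carry CD11b and then by collecting cells that carry ACSA-2, an epitope of the protein encoded by *Atp1b2*. In such bulk libraries, fewer cells of a type and less RNA per cell cannot be told apart.

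Glutamate released at synapses is taken up into astrocytes by sodium-driven carriers, chiefly GLT-1 (*Slc1a2*) and GLAST (*Slc1a3*). Inside the astrocyte, glutamine synthetase (*Glul*) joins ammonia to glutamate, and glutamate dehydrogenase (*Glud1*) passes glutamate into the citric acid cycle. Glutamine leaves through carriers of the SLC38 family and is made into glutamate again in neurons, which closes the glutamate-glutamine cycle. Astrocytes also sense glutamate through metabotropic receptors, of which mGluR5 (*Grm5*) is abundant in developing astrocytes and low in adult ones, while mGluR3 (*Grm3*) persists in the adult.

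The libraries held 21704891 to 32933975 recovered reads. The label of the sorted cells was checked against 10 astrocyte markers. Their summed level was 11867 to 12477 TPM in the PBS libraries and 15232 to 16490 TPM in the DT libraries. Only 1 of the 10, *Gfap*, was called higher, at 994 to 1252 TPM after PBS and 3887 to 4527 TPM after DT within that sum. Of the 10 log2 fold changes, 7 were above 0 and 3 below, with a median of 0.04. Summed markers of other cells were lower: neurons 482 to 641 and 396 to 772 TPM, oligodendrocytes 463 to 574 and 411 to 506 TPM, oligodendrocyte precursors 186 to 225 and 160 to 176 TPM, and endothelial cells 626 to 993 and 537 to 637 TPM, after PBS and after DT. Microglial markers summed to 156 to 193 TPM after PBS and 78.0 to 91.9 TPM after DT, with 6 of 8 called lower and *Siglech* at 0 reads in every DT library. Markers of border-associated macrophages summed to 12.9 to 22.3 and 51.4 to 67.2 TPM, of the choroid plexus to 100 to 2022 and 1247 to 3425 TPM, and of ependymal cells to 332 to 423 and 446 to 757 TPM. Of the macrophage markers, 3 of 5 tested were called higher, and 0 of the neuronal, oligodendrocyte, precursor, endothelial, choroid plexus and ependymal markers were called by limma. The part of these shifts in the results below was not tested.

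The test was passed by 2 of the 9 genes, and both rose after DT: the receptor gene *Grm5*, by 1.79-fold, and the neutral amino acid carrier gene *Slc1a4*, by 1.35-fold. The main glutamate carriers and both enzymes did not pass. Levels differed by orders of magnitude between the genes, from *Slc1a2* at 9441 ± 120 TPM (SD, n = 3) to *Slc38a5* at 7.06 ± 3.37 TPM (SD, n = 3) in the PBS group. Groups were compared with limma on log2(CPM + 0.1), two-sided, with Benjamini-Hochberg adjustment over the 15133 genes with a mean of at least 0.5 CPM. In that fit, 0.714% of genes were called at an adjusted p under 0.05, 0.555% as higher and 0.159% as lower after DT. All 9 genes entered the fit. Their median log2 fold change was -0.07, beside -0.0052 over all genes tested. No member was called lower by limma, while *Glul* was lower at an unadjusted p under 0.05, as were 4.51% of genes (5.91% were higher). The edgeR quasi-likelihood test, which called 0.733% of genes (0.575% higher, 0.159% lower), and the edgeR exact test, which called 1.72% (1.25% higher, 0.476% lower), called *Slc1a4* and *Grm5* and no member as lower. DESeq2, which called 2.14% (1.49% higher, 0.648% lower), called the same 2 genes as higher and *Glul* as lower. The DT and PBS libraries did not overlap in CPM for 3 of the 9 genes, 2 higher and 1 lower, where 16.3% of all genes tested had no overlap (8.76% higher, 7.57% lower).

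**Figure D1:**
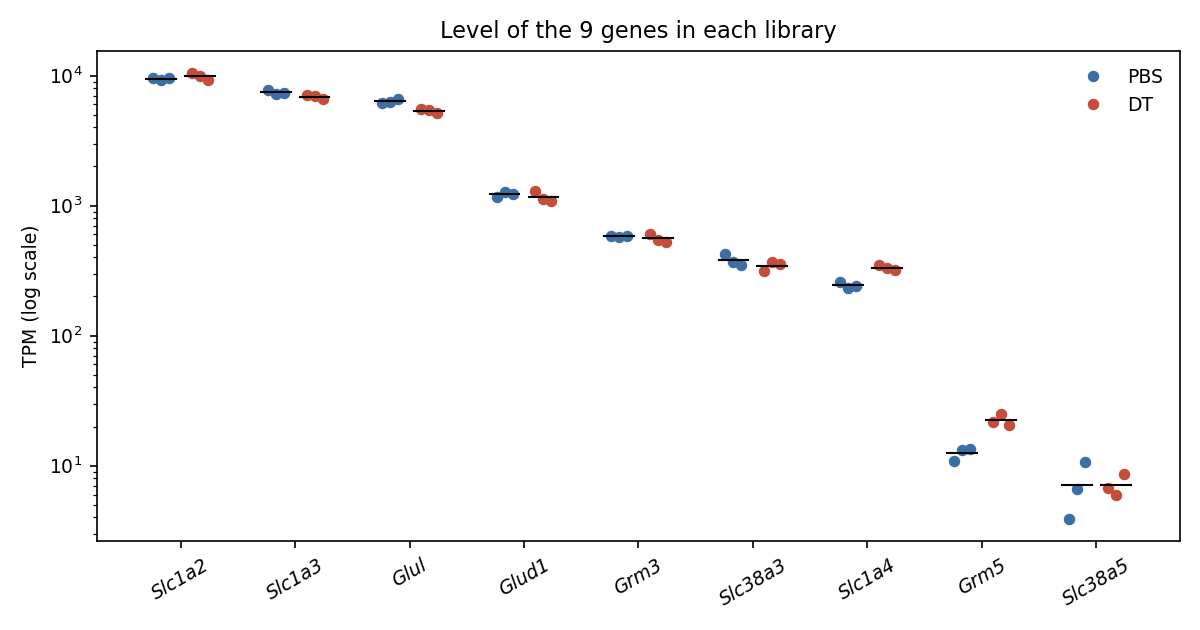
Level of each gene in TPM on a log scale, ordered by mean level, with 1 point per library (PBS blue, DT red) and a line at the group mean. The 3 most abundant genes, *Slc1a2*, *Slc1a3* and *Glul*, lie at 5150 TPM or more in every library. The red and blue points are apart in TPM for *Slc1a3*, *Glul*, *Slc1a4* and *Grm5*. On the CPM scale of the test the groups of *Slc1a3* overlapped, and the share of all genes apart in TPM was not counted.

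*Slc1a2*, in mm10 at chr2:102658659-102790784 (plus strand), had the most reads of any listed gene in all 6 libraries. It took 3.60% to 3.72% of all reads in the PBS libraries and 3.65% to 4.07% in the DT libraries. Its levels were 9514, 9302 and 9506 TPM in PBS replicates 1 to 3 and 10462, 9888 and 9271 TPM in DT replicates 1 to 3. The groups overlapped in TPM, since DT replicate 3 lay below every PBS library and DT replicates 1 and 2 above all. By limma, the log2 difference (DT minus PBS) was 0.05 ± 0.12 (SE; adjusted p = 0.924), with a 95% interval of the fold from 0.858 to 1.25. Without DT replicate 1 it was -0.01 ± 0.09 (SE), so the sign of this fit, which is on CPM, rested on that library. At 807524 reads or more per library, counting error was at most 0.111% of the level, while the PBS libraries differed among themselves by a coefficient of variation of 3.06%.

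*Slc1a3*, at chr15:8634124-8710764 (minus strand), was the next member in abundance. It stood at 7680, 7240 and 7323 TPM after PBS and at 7137, 7007 and 6554 TPM after DT. In TPM, every DT library was below every PBS library. In CPM, however, DT replicate 1 at 10391 CPM lay above PBS replicate 2 at 10224 CPM, so the groups overlapped on the scale of the test. With limma, the log2 difference came out at -0.12 ± 0.09 (SE; adjusted p = 0.701), with a 95% interval of the fold from 0.800 to 1.06.

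Within each library, *Slc1a2* was more abundant than *Slc1a3*. The ratio of their TPM was 1.239, 1.285 and 1.298 in the PBS libraries and 1.466, 1.411 and 1.415 in the DT libraries, so the ratio was higher in all 3 DT libraries. The 3 SLC1 genes together made up 17099 ± 339 TPM in the PBS libraries and 17105 ± 908 TPM in the DT libraries (SD, n = 3 each), and this sum overlapped between the groups. A ratio compares transcripts within a library, and no test was run on it.

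*Slc1a4* encodes ASCT1, which exchanges alanine, serine, cysteine and threonine and does not carry glutamate as GLT-1 and GLAST do. Its position is chr11:20302180-20332713 (minus strand). It stood at 257, 232 and 243 TPM after PBS and at 348, 331 and 318 TPM after DT. The lowest DT library was above the highest PBS library by 61.2 TPM. The fitted log2 difference came to 0.43 ± 0.07 (SE; limma, adjusted p = 0.0387), with a 95% interval of the fold from 1.21 to 1.51. This call was close to the threshold: it was lost in 5 of the 6 fits that each left out 1 library, without PBS replicate 2 (adjusted p = 0.132), PBS replicate 3 (0.120), DT replicate 1 (0.119), DT replicate 2 (0.160) and DT replicate 3 (0.0747), and its log2 fold change stayed between 0.38 and 0.49 in all 6.

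The sequences before the starts of *Slc1a4*, which rose, and of *Slc1a3*, which did not pass the test, are shown because they set side by side carriers of the same family with different outcomes. Each is the 250 bases before the RefSeq start on GRCm38.p6, the same build as mm10, read 5′ to 3′ on the gene's strand. The first is at chr11:20332714-20332963 and the second at chr15:8710808-8711057, both on the minus strand. Capitals mark matches on either strand to the GC box GGGCGG, to the CCAAT box, to the TATA box letters TATAAA, to the cAMP response element core TGACGT or to the STAT letters TTCNNNGAA.
Slc1a4: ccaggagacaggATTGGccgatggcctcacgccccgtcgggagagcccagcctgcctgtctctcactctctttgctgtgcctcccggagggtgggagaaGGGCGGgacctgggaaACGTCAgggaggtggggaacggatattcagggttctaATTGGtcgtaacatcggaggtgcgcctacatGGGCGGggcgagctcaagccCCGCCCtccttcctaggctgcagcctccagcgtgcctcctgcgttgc
Slc1a3: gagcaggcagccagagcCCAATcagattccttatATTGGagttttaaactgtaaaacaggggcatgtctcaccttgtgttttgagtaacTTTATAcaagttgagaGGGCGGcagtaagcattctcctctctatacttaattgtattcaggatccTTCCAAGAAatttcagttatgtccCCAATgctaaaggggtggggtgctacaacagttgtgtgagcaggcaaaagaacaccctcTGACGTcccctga

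The *Slc1a4* stretch was 64.8% G and C and held 3 GC boxes, 2 CCAAT boxes and 1 TGACGT. The *Slc1a3* stretch was 44.8% G and C and held 1 GC box, 3 CCAAT boxes, 1 TGACGT, 1 TATAAA and 1 STAT match. Among 32851 such stretches of 250 bases in the RefSeq table, 32.7% held a GC box, 33.8% CCAAT, 6.47% TGACGT, 12.4% TATAAA and 7.02% the STAT letters. No match was present in either stretch to the AP-1 letters TGANTCA, the C/EBP-ATF letters TGATGNAA or the E-box CACGTG, which 6.75%, 3.45% and 6.02% of the stretches held. None of the motifs overlapped another in these 2 stretches. The stretch of *Slc1a2*, which also did not pass the test, held 0 matches to each of these motifs and is not shown. A match shows only that the letters are present. A promoter was given in the table for 7 of the 9 genes, the others being *Slc38a3* and *Grm5*.

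*Glul*, at chr1:153899944-153909723 (plus strand), encodes the enzyme that makes glutamine and marks astrocytes in the brain. It stood at 6107, 6277 and 6581 TPM after PBS and at 5499, 5419 and 5150 TPM after DT. Every DT library was below every PBS library, with 608 TPM between the nearest. The log2 difference from limma was -0.25 ± 0.08 (SE; adjusted p = 0.297), with a 95% interval of the fold from 0.744 to 0.948 before any correction for the number of genes. The difference therefore did not pass the correction, although all 3 DT libraries were on the same side. It was called with DESeq2 (adjusted p = 0.0156) and after quantile normalization (limma, adjusted p = 0.00853). Quantile normalization gives each gene the value of its rank, and *Glul* held rank 7 to 9 by CPM in every library. Its spread in that fit was therefore limited by construction (SE 0.03, beside 0.08 in the main fit).

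*Glud1*, at chr14:34310727-34345265 (plus strand), stood at 1169, 1284 and 1231 TPM after PBS and at 1296, 1128 and 1094 TPM after DT. The DT libraries lay on both sides of the PBS libraries, with DT replicate 1 above all of them. By limma, the log2 difference (DT minus PBS) was -0.08 ± 0.08 (SE; adjusted p = 0.781). A pseudogene of *Glud1* is annotated in the mouse, and reads could be split between them. *Glul* was more abundant than *Glud1* by ratios of 5.22, 4.89 and 5.35 in the PBS libraries and of 4.24, 4.80 and 4.71 in the DT libraries, with every DT ratio below every PBS ratio.

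**Figure D2:**
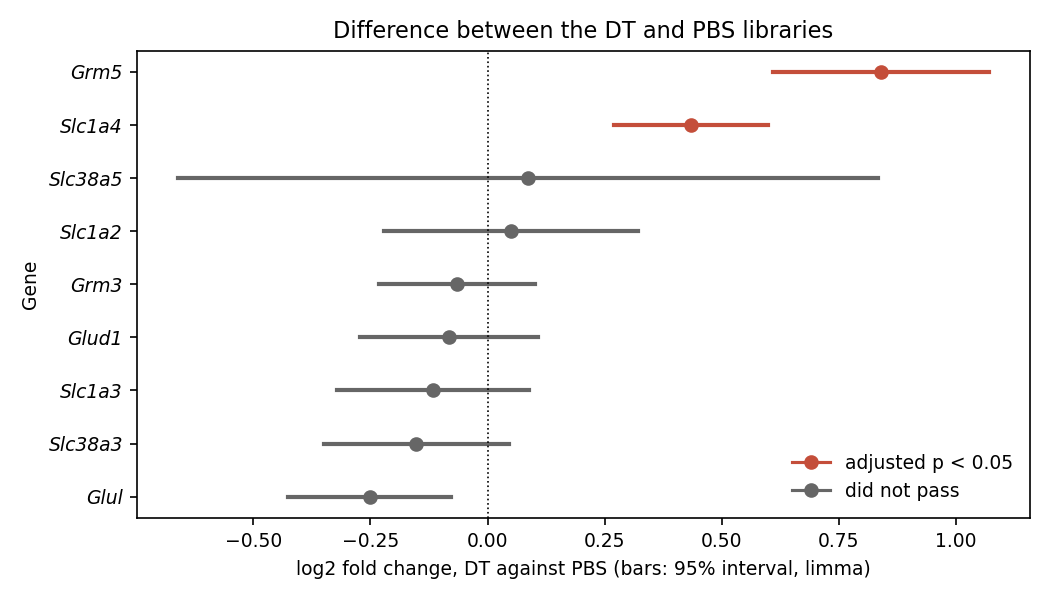
Log2 fold change of each gene between the DT and PBS libraries (horizontal axis, on log2(CPM + 0.1)), with its 95% interval from limma and the genes that passed the adjusted test in red. *Grm5* at 0.84 and *Slc1a4* at 0.43 stand to the right of 0, and the interval of *Slc38a5* is the widest, from -0.66 to 0.83.

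*Slc38a3* encodes SNAT3, the carrier that releases glutamine from astrocytes and is coupled to protons. Its position is chr9:107650634-107669530 (minus strand). It stood at 422, 369 and 352 TPM after PBS and at 314, 367 and 356 TPM after DT. PBS replicate 1 was the highest and DT replicate 1 the lowest, while the other 4 libraries overlapped. With limma, the log2 difference came out at -0.15 ± 0.09 (SE; adjusted p = 0.596), with a 95% interval of the fold from 0.785 to 1.032.

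*Slc38a5* encodes SNAT5, a related carrier of glutamine, with its gene at chrX:8271133-8280179 (plus strand). It was read only 56 to 147 times per library. It stood at 3.92, 6.64 and 10.6 TPM after PBS and at 6.74, 5.96 and 8.57 TPM after DT, and the DT libraries lay within the range of the PBS libraries. The fitted log2 difference came to 0.09 ± 0.33 (SE; limma, adjusted p = 0.957), with a 95% interval of the fold from 0.632 to 1.78. Its coefficient of variation among the PBS libraries was 46.9%, and counting error at the lowest read count was 13.4%. It was -0.25 without PBS replicate 1 and -0.05 without DT replicate 3. The lowest and highest PBS levels of *Slc38a5* were found in the PBS libraries with the lowest and highest sums of 7 endothelial markers, 626 TPM in replicate 1 and 993 TPM in replicate 3. In the DT libraries the highest level was also in the library with the highest endothelial sum, 637 TPM in replicate 3, while the lowest level (5.96 TPM, replicate 2) and the lowest sum (537 TPM, replicate 1) were in different libraries. All 7 endothelial markers had a log2 fold change below 0, with a median of -0.38, and none passed the test. The part of endothelial RNA in the *Slc38a5* level was not tested.

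*Slc38a3* was more abundant than *Slc38a5* in every library. The ratio of their TPM was 108, 55.6 and 33.2 in the PBS libraries and 46.6, 61.6 and 41.5 in the DT libraries, and it overlapped between the groups.

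*Grm3*, at chr5:9485541-9725170 (minus strand), encodes mGluR3, a receptor coupled to inhibition of adenylyl cyclase. It stood at 586, 572 and 581 TPM after PBS and at 604, 546 and 529 TPM after DT. DT replicate 1 was above all PBS libraries and the other 2 DT libraries were below them. By limma, the log2 difference (DT minus PBS) was -0.07 ± 0.07 (SE; adjusted p = 0.806), with a 95% interval of the fold from 0.852 to 1.07.

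*Grm5*, at chr7:87584168-88134907 (plus strand), encodes mGluR5, a receptor coupled to phospholipase C and calcium release. It stood at 10.8, 13.2 and 13.4 TPM after PBS and at 21.8, 25.1 and 20.4 TPM after DT. All DT libraries were above all PBS libraries, and 7.07 TPM separated the nearest. In reads, it was counted 695, 1250 and 841 times after PBS and 1477, 2184 and 1344 times after DT. With limma, the log2 difference came out at 0.84 ± 0.10 (SE; adjusted p = 0.00836), with a 95% interval of the fold from 1.525 to 2.101. The call was kept in all 6 fits that each left out 1 library, with log2 fold changes from 0.76 to 0.91 and adjusted p-values from 0.0159 to 0.0492. It was lost without the variance trend (adjusted p = 0.0776) and without a filter on low genes (0.179).

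Neurons and oligodendrocyte precursors also express *Grm5*. The sum of 10 neuronal markers was 482, 607 and 641 TPM in the PBS libraries and 396, 656 and 772 TPM in the DT libraries, and none of the 10 passed the test. DT replicate 1 had the lowest neuronal sum of all 6 libraries and a *Grm5* level of 21.8 TPM. The part of neuronal RNA in the *Grm5* level was not tested. All 5 precursor markers had a log2 fold change below 0, with a median of -0.35, and none passed the test. The part of precursor RNA in the *Grm5* level was not tested either. The annotation places 5 further gene models on the same strand that overlap *Grm5*, and reads there could be assigned to either. It has 1 such model each for *Slc1a3*, *Glul* and *Grm3*.

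**Figure D3:**
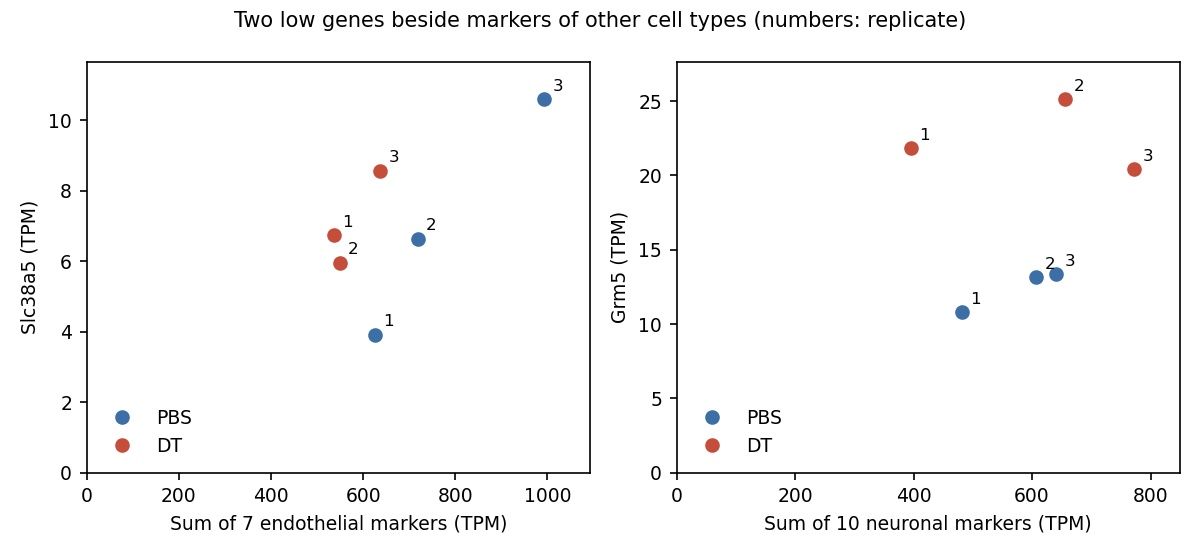
*Slc38a5* in TPM against the sum of 7 endothelial markers (left) and *Grm5* in TPM against the sum of 10 neuronal markers (right), with 1 numbered point per library (PBS blue, DT red). *Grm5* lies at 20.4 to 25.1 TPM in the DT libraries and at 10.8 to 13.4 TPM in the PBS libraries, and *Slc38a5* is highest in PBS replicate 3, where the endothelial sum is highest.

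*Grm3* was far more abundant than *Grm5* in both groups. The ratio of *Grm3* to *Grm5* in TPM was 54.1, 43.5 and 43.5 in the PBS libraries and 27.7, 21.7 and 25.9 in the DT libraries. Every DT ratio was below every PBS ratio.

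**Figure D4:**
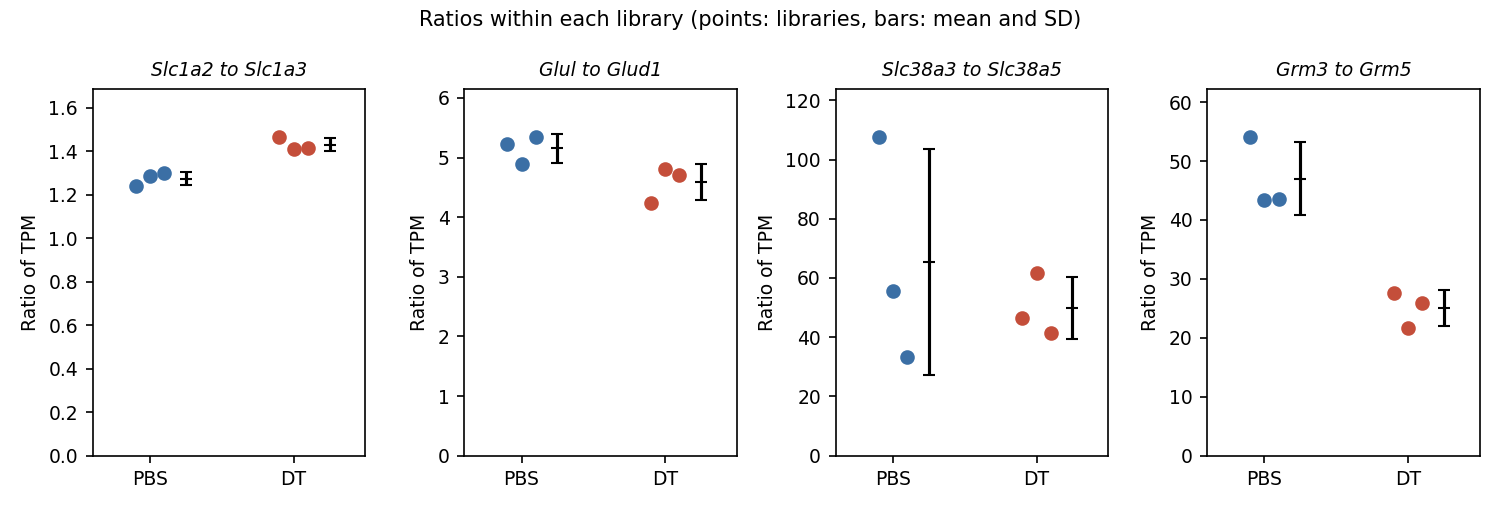
Ratio of TPM within each library for 4 pairs of genes, with 1 point per library (PBS blue, DT red), the mean and SD beside them and axes that start at 0. The PBS and DT points are apart for *Slc1a2* to *Slc1a3*, *Glul* to *Glud1* and *Grm3* to *Grm5*, and overlap for *Slc38a3* to *Slc38a5*.

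On the per-length scale of TPM, the order of mean levels over all libraries was *Slc1a2*, *Slc1a3*, *Glul*, *Glud1*, *Grm3*, *Slc38a3*, *Slc1a4*, *Grm5* and *Slc38a5*. Neighbours in this order did not overlap among the PBS libraries, although *Grm5* at its lowest, 10.8 TPM, was close to *Slc38a5* at its highest, 10.6 TPM. After DT, *Slc38a3* and *Slc1a4* overlapped, with means of 346 ± 28.0 and 332 ± 15.1 TPM (SD, n = 3), and the other neighbours did not. Among the genes tested, *Slc1a2*, *Slc1a3* and *Glul* stood above percentile 99.9 of the TPM after PBS. *Grm5* stood at percentile 35.2 and *Slc38a5* at percentile 24.5.

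The genes whose levels followed *Slc1a2* most closely over the 6 libraries were *Hspa13*, *Chmp7* and *Mpdu1*, with Pearson correlations of 0.985, 0.982 and 0.979 on log2(CPM + 0.1). They were the closest of 7706 genes with a mean of at least 20 CPM, of which 62 had a correlation above 0.9. The points share their libraries and their scaling, and only 6 libraries were compared.

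A wider list of 55 genes of glutamate and glutamine handling was set beside the 9 members. Of these, 48 were tested, the rest being under the filter or, for *Pc*, not analysed here. Among the tested genes, 1 was called higher after DT and 0 were called lower by limma, beside 0.555% and 0.159% of all genes tested. At an unadjusted p under 0.05, 8 were higher and 1 was lower, beside 5.91% and 4.51% of all genes tested. DESeq2 called 4 higher, beside 1.49% of all genes. Both edgeR tests called 1 higher, beside 0.575% (quasi-likelihood) and 1.25% (exact test) of all genes. These 3 tools called 0 lower, beside 0.648%, 0.159% and 0.476% of all genes. The median log2 fold change of the 48 genes was 0.06, beside -0.0052 over all genes tested. Levels below are means ± SD of 3 libraries, with the PBS group first and the DT group second.

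Among the other carriers of the SLC1 family, *Slc1a1*, the carrier typical of neurons, stood at 15.2 ± 3.07 and 13.9 ± 2.59 TPM. *Slc1a5*, which encodes the glutamine carrier ASCT2, stood at 4.75 ± 0.755 and 3.86 ± 1.45 TPM. Both were therefore far below *Slc1a2* and *Slc1a3*, and neither passed the test. *Slc1a6* was under the filter and *Slc1a7* was listed at 0.

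Among the other SLC38 genes, 7 of 9 were tested and 0 were called by limma. *Slc38a1*, which serves the uptake of glutamine into neurons, stood at 43.1 ± 1.01 and 46.8 ± 17.2 TPM. *Slc38a10* stood at 30.9 ± 8.45 and 41.5 ± 2.96 TPM, with overlapping groups in TPM. In CPM the groups barely separated, with the lowest DT library at 61.149 and the highest PBS library at 61.135 CPM. The log2 difference in CPM was 0.46 (limma, adjusted p = 0.380). Without PBS replicate 2, *Slc38a10* passed the test at a log2 difference of 0.67 (limma, adjusted p = 0.0417).

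Among 13 other enzymes tested, 0 were called by limma. *Oat*, the ornithine aminotransferase of mitochondria, was the most abundant at 281 ± 10.2 and 348 ± 14.3 TPM. Its log2 fold change was 0.29 (adjusted p = 0.114 from limma), and DESeq2 called it. *Gpt2*, a mitochondrial alanine aminotransferase, stood at 129 ± 11.3 and 129 ± 1.62 TPM, with a log2 fold change of -0.01.

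The mitochondrial glutamate carrier gene *Slc25a18* was abundant, at 1059 ± 71.3 and 1055 ± 111 TPM. *Slc25a12*, an aspartate-glutamate carrier, stood at 66.8 ± 2.96 and 65.3 ± 2.62 TPM. The subunits of the cystine-glutamate exchanger, *Slc7a11* and *Slc3a2*, stood at 230 ± 23.0 and 260 ± 28.2 TPM for the former and at 239 ± 16.6 and 252 ± 9.73 TPM for the latter. None of these 4 genes passed the test.

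The sodium pump maintains the gradient that drives glutamate uptake, and its subunits held the one call among the wider list. *Atp1b1*, a beta subunit, rose from 202 ± 10.6 to 255 ± 9.38 TPM, a log2 difference of 0.33 ± 0.06 (SE; limma, adjusted p = 0.0429). The call was lost in all 6 fits that left out 1 library, in which the log2 fold change was 0.29 to 0.34 and the adjusted p-value 0.0947 to 0.219, and also without a filter, without the variance trend, with TPM, with plain sums of reads and with quantile normalization. *Atp1b2*, whose product carries the epitope used for the sort, stood at 1014 ± 30.6 and 1245 ± 73.6 TPM, with every DT library above every PBS library, and was not called by limma (adjusted p = 0.207) but was by DESeq2 (adjusted p = 0.0233).

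Of the other metabotropic glutamate receptors, 5 of 6 were tested and 0 were called. *Grm7* stood at 8.65 ± 0.351 and 9.78 ± 2.27 TPM. Among 10 genes that couple group I receptors such as mGluR5 to calcium release, 0 were called by limma. *Itpr2*, the inositol trisphosphate receptor of astrocytes, stood at 119 ± 15.9 and 126 ± 2.05 TPM, and *Plcb3*, a phospholipase C, at 102 ± 3.38 and 116 ± 4.48 TPM.

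**Figure D5:**
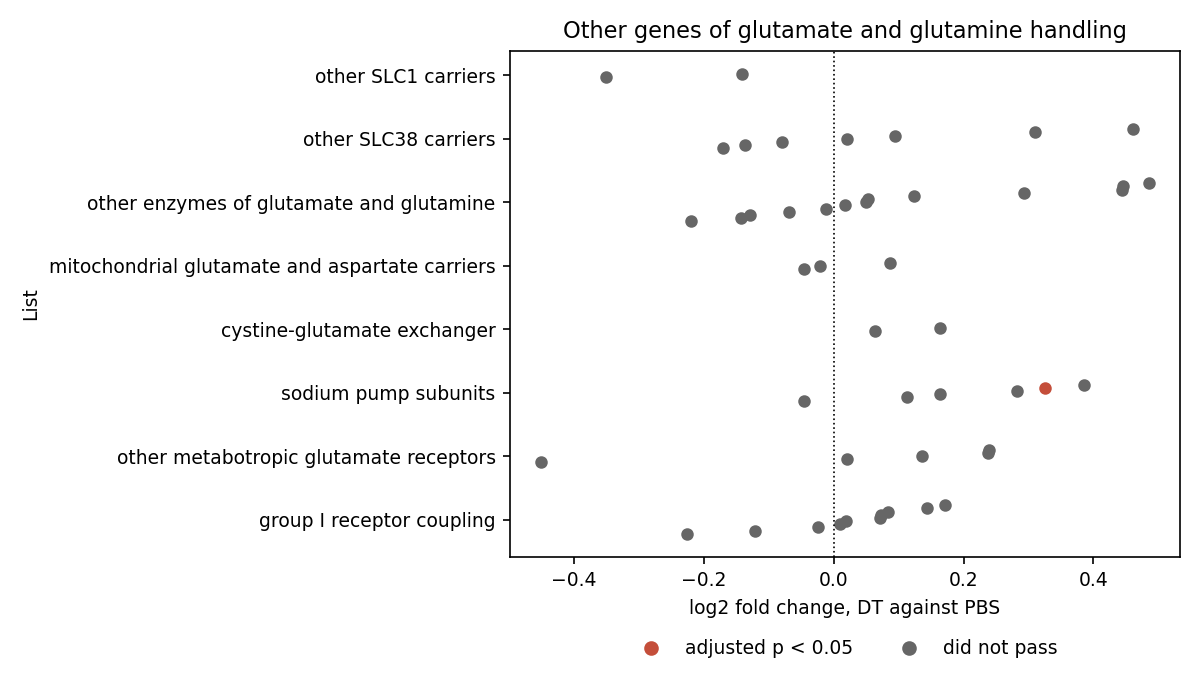
Log2 fold change between DT and PBS (horizontal axis) of the 48 tested genes of the wider list, with 1 point per gene, grouped by list and the called gene in red. The points lie between -0.45 and 0.49, and the single red point is *Atp1b1* among the sodium pump subunits.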

How the data were processed

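The deposited tables hold CPM and TPM per gene for 3 PBS and 3 DT libraries, and columns of the authors' own comparison (p-values, q-values, fold changes on a log scale), which were not used. Per the study's methods and the labels, reads were trimmed with Trim Galore 0.5.0 and mapped to mm10 with HISAT2 2.1.0 using strand; ribosomal reads were removed with bedtools 2.25.0, genes were quantified with StringTie 1.3.5 and compared with edgeR 3.24.3. The deposited CPM are a signal scaled by the authors to adjusted library sizes, with sums from 980428 to 1026170. The TPM were deposited by the authors per transcript length. Whole reads were recovered from the CPM steps for 100% of values, within 0.05 of a read. The methods name an mm10 gene annotation for quantification without its release, and coordinates are those of GENCODE M21.

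The groups were compared with limma 3.58.1 in R 4.3.3 on log2(CPM + 0.1), with a variance trend, and genes averaging under 0.5 CPM were not tested. Fold changes are on this scale, which understates those of low genes. The 4 rows with repeated names were left out. Alternatives were other pseudocounts, filters and scalings, TPM, no trend, a replicate block, each library left out, and edgeR 4.0.16 and DESeq2 1.42.0 on the recovered reads. The tests were tested on simulated data. The members and lists were chosen with earlier results of these data known. Named are the members, called genes of the wider list, the 2 with the highest TPM in each of its groups and the 3 closest to *Slc1a2*, apart from items that are not reported here. The libraries came from 3 independent experiments. Intervals of the fold are for the difference of group means, from the moderated variance between libraries in the unpaired limma fit. Each library pooled 2 mice, so the spread between single mice was not measured.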

Additional observations from a re-analysis of the deposited data

How the results depend on the processing

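The log2 fold changes of *Slc1a3*, *Slc1a4*, *Glul*, *Glud1*, *Slc38a3*, *Grm3* and *Grm5* kept their sign under all 18 alternatives, except that quantile normalization set those of *Slc1a2* and *Slc1a3*, which hold the same ranks in every library, to 0 by construction. For the changes below the cause was not tested. Without a filter, *Slc1a4* (0.43, adjusted p = 0.265) and *Grm5* (0.84, adjusted p = 0.179) lost their calls, 5 genes were higher and 1 lower, and 0 genes of the wider list were called. Without the variance trend, *Slc1a4* (0.43, adjusted p = 0.212) and *Grm5* (0.84, adjusted p = 0.0776) lost them, and 35 genes were higher, 11 lower and 0 of the wider list called. *Glul* was called with DESeq2 (-0.25) and with quantile normalization (-0.22), where its ranks of 7 to 9 limit its spread by construction. *Slc38a5* was at -0.00129 with the edgeR quasi-likelihood test, -0.00182 with DESeq2 and -0.000744 with the exact test. DESeq2 called 226 genes higher and 98 lower, with 4 of the wider list, and the exact test 189 and 72, beside 84 and 24 with limma. With TPM and with quantile normalization, 0 of the wider list were called. In the fits that each left out 1 library, *Slc1a2* ranged from -0.00916 (without DT replicate 1) to 0.10, *Slc1a4* from 0.38 to 0.49 and *Slc38a5* from -0.25 (without PBS replicate 1) through -0.05 (without DT replicate 3) to 0.43, and 39 (without DT replicate 1) to 72 genes were higher, 9 (without PBS replicate 2) to 20 lower and 0 to 1 of the wider list called. Without DT replicate 2, 40 genes were higher, and fewer genes were lower without PBS replicate 1 (11), PBS replicate 3 (10) or DT replicate 2 (10). For genes of the wider list named in the text, 279 values kept sign and side, 11 lost and 4 gained a call, and 12 changed sign: *Gpt2* with TPM (9.17e-06), quantile normalization (0.0144) and plain sums of reads (0.00238), *Slc25a18* with quantile normalization (0.000511), and otherwise fits without 1 library, in which *Slc1a1* ranged from -0.26 to 0.0166, *Slc38a1* from -0.24 to 0.28, *Gpt2* from -0.0673 to 0.0714, *Slc25a18* from -0.12 to 0.0400 and *Itpr2* from -0.0128 to 0.19. *Slc38a5* had the fewest reads of the members, 56 to 147 per library, which gives a counting error of 13.4% at the lowest.

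Same-numbered PBS and DT libraries deviated from their group means with correlations of 0.0103 to 0.118, and differently numbered ones with -0.124 to 0.0116, which leaves the pairing of libraries by number undecided. A fit with the replicate block called 79 genes higher and 30 lower, *Slc1a4* (0.43) and *Grm5* (0.84) stayed called and *Glul* (-0.25, adjusted p = 0.136) did not.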
